A study of Mus musculus with 6 samples.

Results

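Disease-associated microglia and the microglia of young axon tracts share a set of genes that resting microglia express little of, and 10 of these genes (Apoe, Spp1, Lpl, Itgax, Clec7a, Gpnmb, Cst7, Cd9, Igf1 and Lgals3) were followed here in microglia of the taste relay of the mouse brainstem. They were chosen by name, and each matched 1 row among the 26789 genes of the deposited table. The 6 libraries came from microglia of the rostral nucleus of the solitary tract (NST) of mice at P15, of both sexes. Of these, 3 were from controls, whose mothers had a control diet, and 3 were from E3–E12 diet mice, whose mothers ate a sodium-restricted diet over embryonic days 3 to 12 of the litter and standard chow afterwards. Per the study's methods, each library pooled tissue of 6 littermates from 1 litter, the cells were taken with magnetic beads against CD11b, and the RNA was amplified, whereas the series' design text names laser microdissection. The comparison asks whether maternal sodium restriction early in gestation altered microglial gene expression shortly before gustatory terminals are normally pruned.

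In the first postnatal weeks, amoeboid microglia gather in developing white matter, where they engulf cells and debris and release factors that act on oligodendrocytes and axons. A similar program appears in adult microglia around dying neurons, damaged myelin and amyloid plaques, where the receptor Trem2 and its adaptor Tyrobp are needed for its full onset and the genes of resting, or homeostatic, microglia fall. Several of its products are secreted (apolipoprotein E, osteopontin, insulin-like growth factor 1, lipoprotein lipase and galectin-3), others sit on the cell surface or the lysosome, and other brain cells make some of them too.

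The values are normalized counts per gene, and the libraries differed in ways that bear on them. Totals ran from 9407140 to 17204600 normalized counts. Between 3459 and 10640 genes were listed at 0 in a library, the largest number in control replicate 2. The low values of a library lay mostly on a regular step, which puts the worth of 1 read between 0.5395 normalized counts in control replicate 3 and 1.97 in control replicate 2, and the depth at roughly 8340000 to 22100000 reads. This depth is an estimate of the reads counted to genes, and the study's methods state a larger number of reads sequenced per sample. The 7 microglia markers P2ry12, Tmem119, Cx3cr1, Csf1r, C1qa, Aif1 and Itgam were each above 0 in every library. Their summed level was 81928, 422562 and 184678 normalized counts in controls against 83977, 188598 and 254136 for the E3–E12 diet, in the order of replicates 1, 2 and 3 that is kept throughout. In pooled cells a smaller number of cells of a type and less RNA per cell cannot be told apart.

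RefSeq promoters (GRCm38.p6, 250 bases before to 50 bases after a transcription start) were found for 9 of the 10 genes, and for Lpl none was found. They were searched on both strands for the core of the site bound by PU.1, the master transcription factor of microglia (AGGAAGT), for the E-box that MITF and TFEB bind (CACGTG) and for the AP-1 site (TGAGTCA). Only the first start of each gene was used. The PU.1 core occurred in Spp1 and Cst7 and in 9.27% of all 32544 promoters, the AP-1 site in Itgax and Gpnmb and in 5.19%, and the E-box in none of the 9 and in 7.17%. The promoters that hold a match are shown only to show where the matches lie, with the matching bases in capitals. That of Spp1 lies at chr5:104434861-104435160 on the + strand with its match at position -112 from the start, that of Cst7 at chr2:150570165-150570464 (+, position -63), that of Itgax at chr7:128129300-128129599 (+, position -56) and that of Gpnmb at chr6:49036268-49036567 (+, position 8). A match of letters is not evidence of binding.
Spp1: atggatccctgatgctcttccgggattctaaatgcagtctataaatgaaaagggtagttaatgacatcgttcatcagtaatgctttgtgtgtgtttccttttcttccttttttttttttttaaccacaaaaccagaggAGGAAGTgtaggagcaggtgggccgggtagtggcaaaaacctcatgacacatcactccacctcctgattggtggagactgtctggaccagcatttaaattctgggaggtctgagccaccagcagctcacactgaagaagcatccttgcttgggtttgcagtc
Cst7: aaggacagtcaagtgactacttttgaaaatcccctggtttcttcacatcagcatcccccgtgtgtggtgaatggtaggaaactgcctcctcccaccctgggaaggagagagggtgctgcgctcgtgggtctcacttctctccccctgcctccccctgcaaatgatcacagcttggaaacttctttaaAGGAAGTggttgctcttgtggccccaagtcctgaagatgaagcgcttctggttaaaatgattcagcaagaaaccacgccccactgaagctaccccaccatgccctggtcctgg
Itgax: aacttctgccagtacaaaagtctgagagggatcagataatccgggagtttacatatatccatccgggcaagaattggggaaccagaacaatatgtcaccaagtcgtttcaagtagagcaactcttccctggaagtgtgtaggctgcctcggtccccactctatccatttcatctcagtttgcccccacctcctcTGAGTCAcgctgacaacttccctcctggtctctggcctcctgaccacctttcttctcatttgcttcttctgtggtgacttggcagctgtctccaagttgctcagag
Gpnmb: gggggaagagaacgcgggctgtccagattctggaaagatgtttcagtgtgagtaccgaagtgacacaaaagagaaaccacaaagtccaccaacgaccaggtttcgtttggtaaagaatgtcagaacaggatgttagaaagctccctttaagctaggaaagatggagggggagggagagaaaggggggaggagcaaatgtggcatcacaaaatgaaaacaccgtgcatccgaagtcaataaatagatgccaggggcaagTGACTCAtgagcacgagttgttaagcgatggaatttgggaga

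No change with the maternal diet was detected in the 10 genes after adjustment. The test was limma, a linear model with variances moderated across genes, on log2(normalized count + 1). The threshold was the study's adjusted p of 0.1 (Benjamini-Hochberg over the 18007 genes averaging 10 or more normalized counts). In this fit 0 members and 0 genes in all (0.0%) passed it. The adjusted p of every member was 0.999. The study itself used DESeq2 and printed lists of genes past that threshold in both directions, among them Igfbp2, Igfbp5, Itgb1 and Aldoc. None of the 10 genes is in those lists. The count of 0 genes thus belongs to limma on the deposited values and not to the study's own analysis. At an unadjusted p under 0.05 there was 1 member, Cst7, against 327 of 18007 genes (1.82%), or 2.6% of genes with the replicate number as a block. In no member were the 3 E3–E12 diet libraries all above or all below the 3 controls, against 5.9% of all genes tested. In mean log2 level 4 members were higher and 6 lower in the E3–E12 diet group, with a median log2 fold change of -0.072, beside 0.087 over all genes tested. The log2 fold change was under 0.5 in size in 6 members and in 45.3% of all genes.

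Their levels, set per kilobase of exon so that genes can be compared, covered a wide range with the same leading pair throughout. Apoe led in each of the 6 libraries, from 4.81 to 32.4 times the next gene, which was Cd9 in each, and it held between 73.0% and 93.1% of the summed level of the 10 genes per kilobase. Averaged over the libraries, Apoe stood at 3428 normalized counts per kilobase, higher than 99.5% of the genes tested, followed by Cd9 at 285 (above 90.3%), Igf1 at 107 (above 73.9%), Lpl at 59.2, Spp1 at 52.4 and Cst7 at 39.6. Itgax at 13.9, Lgals3 at 9.27, Gpnmb at 9.12 and Clec7a at 7.32 normalized counts per kilobase lay at the bottom, Clec7a above 9.86% of genes. Below Cd9 the order changed from library to library (Igf1 came next in most but not all), so neighbours among these 8 genes did not differ beyond their spread.

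**Figure D1:**
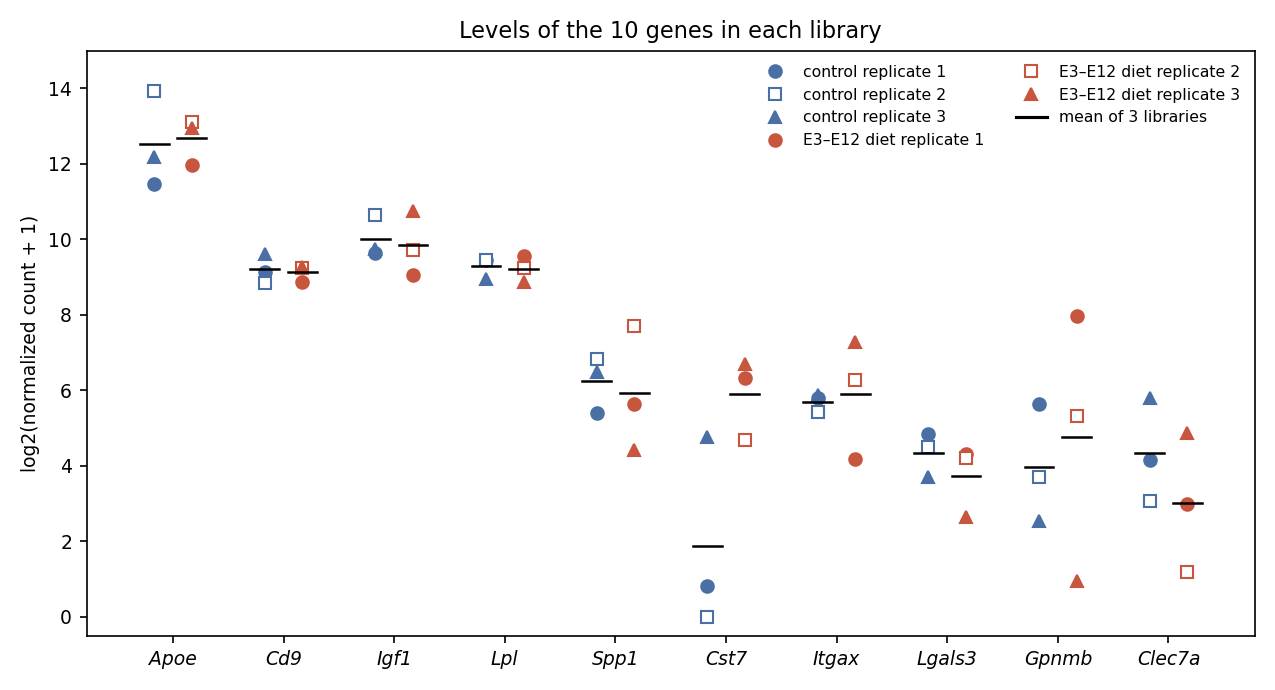
Level of each of the 10 genes in the 6 libraries, as log2(normalized count + 1), ordered by mean level per kilobase, with controls in blue and E3–E12 diet mice in red, a symbol for each replicate number and a bar at the mean of 3 libraries. Lpl and Cd9 keep nearly the same level throughout, Cst7 is at 0 or about 1 read in 2 controls, and no gene separates the 2 groups.

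Apoe, the lipid-carrying apolipoprotein that microglia and astrocytes both secrete, had 2827, 15671 and 4619 normalized counts in controls against 4048, 8820 and 7994 in the E3–E12 diet group. Control replicate 2 was by far the highest and control replicate 1 the lowest, so the E3–E12 diet libraries lay inside the range of the controls. The E3–E12 diet mean was 6954 ± 2550 normalized counts and the control mean 7706 ± 6956 (SD, 3 libraries in each), with a log2 fold change of 0.16 (SE 0.81, 95% interval -1.79 to 2.11, exact permutation p = 1.0, two-sided). Astrocytes also make Apoe. All 8 of their markers (Gfap, Aqp4, Slc1a3, Slc1a2, Aldh1l1, Gja1, Aldoc and S100b) had a higher mean log2 level in E3–E12 diet mice. None reached an unadjusted p under 0.05 by limma, and 9797 of all 18007 genes tested were higher. Several of these means rest on low values in control replicate 2, where Aldoc was at 7.17 and Slc1a2 at 211 normalized counts. Slc1a3, at 1420, instead had its highest control value there. The count of markers without that library was not made. The summed level of the 8 markers was 1835 to 9266 normalized counts in controls and 4821 to 9877 in E3–E12 diet mice. Apoe was highest in the library where that sum was lowest and where Gfap and Aldh1l1 were listed at 0, which was also the library with the highest sum of microglia markers, and the part of either cell type in its level was not tested. Without control replicate 2 the log2 fold change of Apoe was 0.87.

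No change was detected either in genes of proteins that load or bind apolipoprotein E. Of 7 such genes (Abca1, Abcg1, Lrp1, Lrp8, Vldlr, Sorl1 and Trem2), 0 passed the threshold, 1 was higher and 6 were lower in mean. Abcg1, a cholesterol exporter, was the one whose groups did not overlap (named after its values were seen), with 476, 495 and 386 normalized counts in controls and 383, 264 and 296 in E3–E12 diet mice (log2 fold change -0.53, SE 0.53). Non-overlap in the lower direction was found in 2.91% of all genes tested. Control replicate 3, at 386, and E3–E12 diet replicate 1, at 383, were almost level.

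Lpl and Cd9 were the steadiest members. Lpl, which frees fatty acids from the triglycerides of lipoproteins, had 705, 697 and 493 normalized counts in controls and 755, 605 and 465 in E3–E12 diet mice, a 1.62-fold spread over all 6 libraries. Only 1.39% of the genes tested had a narrower range on the log2 scale. Its means of 608 ± 145 and 632 ± 120 normalized counts (E3–E12 diet first, SD, n = 3 each) lay closer together than the replicates did (log2 fold change -0.064, SE 0.55, exact permutation p = 0.9). Even so, the 95% interval ran from -1.39 to 1.26, so a change within that range in either direction remains possible.

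Cd9, a tetraspanin that microglia share with oligodendrocytes and endothelial cells, had 562, 462 and 788 normalized counts in controls and 471, 601 and 612 in E3–E12 diet mice (log2 fold change -0.080, SE 0.55, 95% interval -1.40 to 1.24, exact permutation p = 1.0). The groups interleaved, and 1.99% of genes had a narrower range. The 7 oligodendrocyte markers summed to 5030 to 43071 normalized counts in controls and 5889 to 23480 in E3–E12 diet mice (Mag was listed at 0 in 4 libraries), and Cd9 was highest in the library where that sum was lowest, control replicate 3. Its lowest value was in control replicate 2, where the sum of the 5 endothelial markers was also lowest, at 4538 normalized counts against 7514 to 12338 elsewhere, although Cldn5 and Pecam1, which are among them, were at their highest there. 14.4% of the 50-base windows of its transcripts occur in other annotated genes, among them Gm26728, which overlaps it on the opposite strand, so its reads could be shared. The part of other cells in the level of Cd9 was not tested.

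Igf1, a growth factor that microglia give to oligodendrocytes and neurons, had 794, 1596 and 858 normalized counts in controls and 532, 835 and 1730 in E3–E12 diet mice. Its highest value was in E3–E12 diet replicate 3 and its lowest in E3–E12 diet replicate 1, so the diet group spanned the controls. The means were 1032 ± 623 and 1083 ± 446 normalized counts (log2 fold change -0.17, SE 0.69, 95% interval -1.81 to 1.48, exact permutation p = 0.9). Around it, the receptor gene Igf1r and 5 genes of binding proteins were tested, and 0 passed. The 2 of them with the most positive and most negative log2 fold changes, Igfbp3 and Igfbp5, stood at 2.34 (SE 2.49) and -1.35 (SE 1.15), and Igfbp3 was listed at 0 in control replicate 2 and was at -0.78 without that library.

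**Figure D2:**
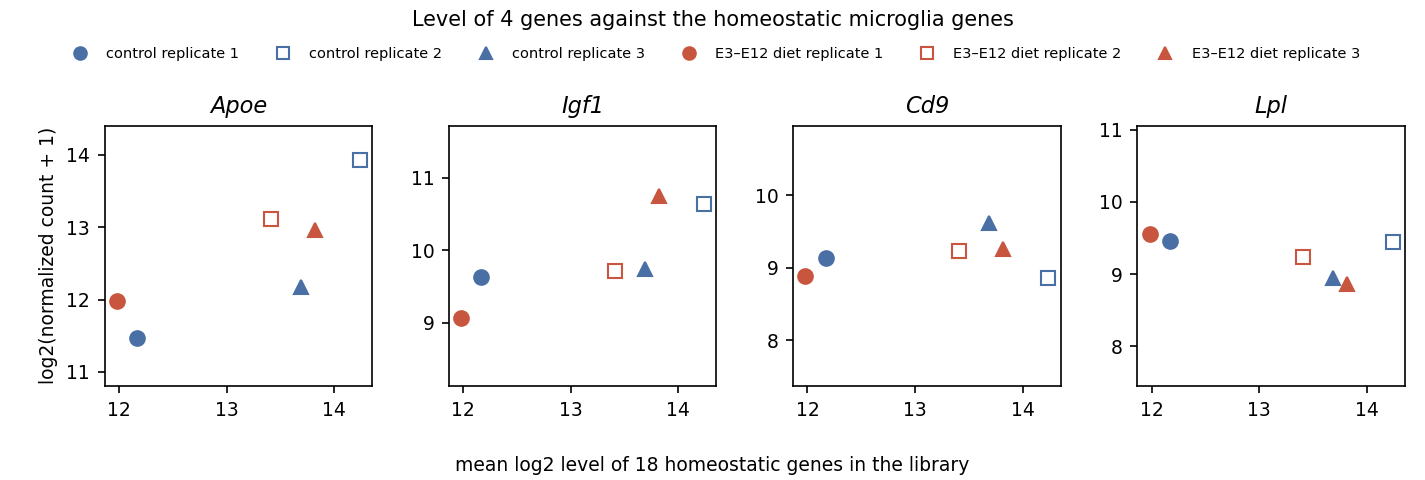
Level of Apoe, Igf1, Cd9 and Lpl in each library, as log2(normalized count + 1), against the mean log2 level of 18 homeostatic microglia genes in the same library, with controls in blue and E3–E12 diet mice in red. Apoe and Igf1 are higher in control replicate 2 and E3–E12 diet replicate 3 than in replicate 1 of either diet, while Cd9 and Lpl stay nearly flat.

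Each library was also set against its own homeostatic genes. The mean log2 level of 18 homeostatic genes ran from 11.98 in E3–E12 diet replicate 1 to 14.2 in control replicate 2, a range of 2.26. Relative to that mean, the range of Apoe over the 6 libraries narrowed from 2.47 to 1.51 on the log2 scale and that of Igf1 from 1.70 to 1.40. The range of Lpl widened from 0.70 to 2.53 and that of Cd9 from 0.77 to 2.35, as it must for genes whose own range is much narrower than that of the mean subtracted. The log2 level of Apoe lay at or below the homeostatic mean in all libraries, between -1.51 in control replicate 3 and -0.00022 in E3–E12 diet replicate 1. For the same reason Lpl had to stand highest where that mean was lowest. These libraries were E3–E12 diet replicate 1 (-2.42) and control replicate 1 (-2.71). The part of non-microglial RNA in the level of Lpl was not tested.

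Spp1 encodes osteopontin, a secreted ligand of integrins and CD44, and it is one of the most characteristic genes of the axon-tract microglia. It had 41.1, 112 and 89.4 normalized counts in controls and 48.9, 206 and 20.4 in E3–E12 diet mice, so that both the highest and the lowest library were of the diet group (log2 fold change -0.32, SE 0.96, exact permutation p = 0.9). The lowest value corresponds to about 21.7 reads. 11.6% of its 50-base windows are shared with the overlapping gene Gm42793 on the same strand. Its 7 receptor genes (Cd44, Itgav, Itgb1, Itgb3, Itgb5, Itga4 and Itga9) had 3 higher and 4 lower in mean, with 0 past the threshold.

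Itgax encodes CD11c, the integrin chain whose presence marks a microglial subset of young white matter, and had 54.9, 41.8 and 57.5 normalized counts in controls against 17.02, 76.4 and 153 in E3–E12 diet mice. The controls lay close together, and the diet libraries fell on both sides of them (log2 fold change 0.21, SE 0.88, exact permutation p = 0.8). 8.02% of its 50-base windows occur in its relative Itgad. Its partner chain Itgb2 is common to other leukocyte integrins and had 983 to 3742 normalized counts in controls against 676 to 4034 in the E3–E12 diet group.

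Gpnmb, a transmembrane glycoprotein of lysosomes, had the widest range of the 10 on the log2(normalized count + 1) scale, at 7.01 beside 6.69 for Cst7. It had 48.7, 11.9 and 4.84 normalized counts in controls and 251, 39.3 and 0.947 in E3–E12 diet mice. The highest and the lowest value were thus both in the diet group, and the lowest amounts to about 1.01 reads. The log2 fold change was 0.80 (SE 1.81, exact permutation p = 0.8), and without E3–E12 diet replicate 1 it turned to -0.81. That library also held the highest sum of the 4 fibroblast markers, at 4078 normalized counts against 491 to 1774 elsewhere, and of the 3 choroid plexus markers, at 39517 against 52.4 to 18522. Whether these cells contributed to Gpnmb was not tested. Mitf, Tfeb and Tfe3, which encode transcription factors known to drive Gpnmb, had log2 fold changes of -0.21, 0.0028 and 0.34.

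Clec7a, the receptor dectin-1, and Lgals3, galectin-3, were low throughout. Clec7a had 16.9, 7.35 and 54.9 normalized counts in controls and 6.88, 1.26 and 28.4 in E3–E12 diet mice, the smallest of which is about 1.12 reads (log2 fold change -1.33, SE 1.16, exact permutation p = 0.4). Control replicate 3 was the highest, while control replicate 2 lay below E3–E12 diet replicate 3, so the groups overlapped. Lgals3 had 27.96, 21.6 and 12.1 normalized counts in controls and 18.9, 17.6 and 5.22 in E3–E12 diet mice, with a log2 fold change of -0.63 (SE 0.72, exact permutation p = 0.4), and its groups overlapped too, control replicate 3 lying below both E3–E12 diet replicates 1 and 2. Downstream of Clec7a, Syk, Card9, Bcl10, Malt1 and Plcg2 had 0 genes past the threshold. All E3–E12 diet libraries exceeded all controls for Malt1 (named after its values were seen), with 640, 643 and 792 against 551, 329 and 585 normalized counts and a log2 fold change of 0.54 (SE 0.56), where 2.99% of all genes tested separated in this direction.

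Cst7, which encodes cystatin F, an inhibitor of lysosomal cathepsins, differed most. It had 0.775, 0 and 26.1 normalized counts in controls against 79.8, 24.7 and 103 in the E3–E12 diet group. The value in control replicate 1 is about 0.999 reads and that in control replicate 3 about 48.4 reads, and control replicate 3 lay just above E3–E12 diet replicate 2 (about 21.9 reads), so the groups overlapped by this 1 pair of libraries. The E3–E12 diet mean was 69.0 ± 40.1 normalized counts and the control mean 8.96 ± 14.9. The log2 fold change was 4.04 (SE 1.34, 95% interval 0.84 to 7.24), with an unadjusted p of 0.0208 and an adjusted p of 0.999 from limma, and an exact permutation p of 0.2, where 0.1 is the smallest that 3 libraries against 3 allow. It stayed positive without any single library, from 3.11 to 5.49, but the unadjusted p from limma was above 0.05 in 4 of these 6 fits, at 0.0659 without control replicate 1, 0.0643 without control replicate 2, 0.0797 without E3–E12 diet replicate 1 and 0.0657 without E3–E12 diet replicate 3. Much of its size came from the controls near 0, since with a pseudocount of 10 it was 2.16.

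Cystatin F acts on cysteine proteases of the lysosome. Its targets Ctsc, Ctsl and Lgmn had log2 fold changes of -0.091, -0.58 and -0.015 (SE 0.77, 0.75 and 0.71), and none passed the threshold. Lgmn, the cysteine protease legumain and the most abundant partner per kilobase, had 4333 to 12737 normalized counts in controls and 4473 to 11403 in E3–E12 diet mice. Markers of border-associated macrophages, close relatives of microglia in the meninges and around vessels, were also measured. Their summed level over 8 genes was 6033 to 21258 normalized counts in controls against 5682 to 9870 in the E3–E12 diet group. For Pf4, one of them, all E3–E12 diet libraries lay below all controls (2.25, 20.3 and 12.3 against 30.5, 36.5 and 173 normalized counts). Among all genes tested 2.91% separated this way, and of all the markers 1 other separated, the astrocyte gene Aldoc, which was higher with the diet (607, 486 and 516 against 236, 7.17 and 203 normalized counts).

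**Figure D3:**
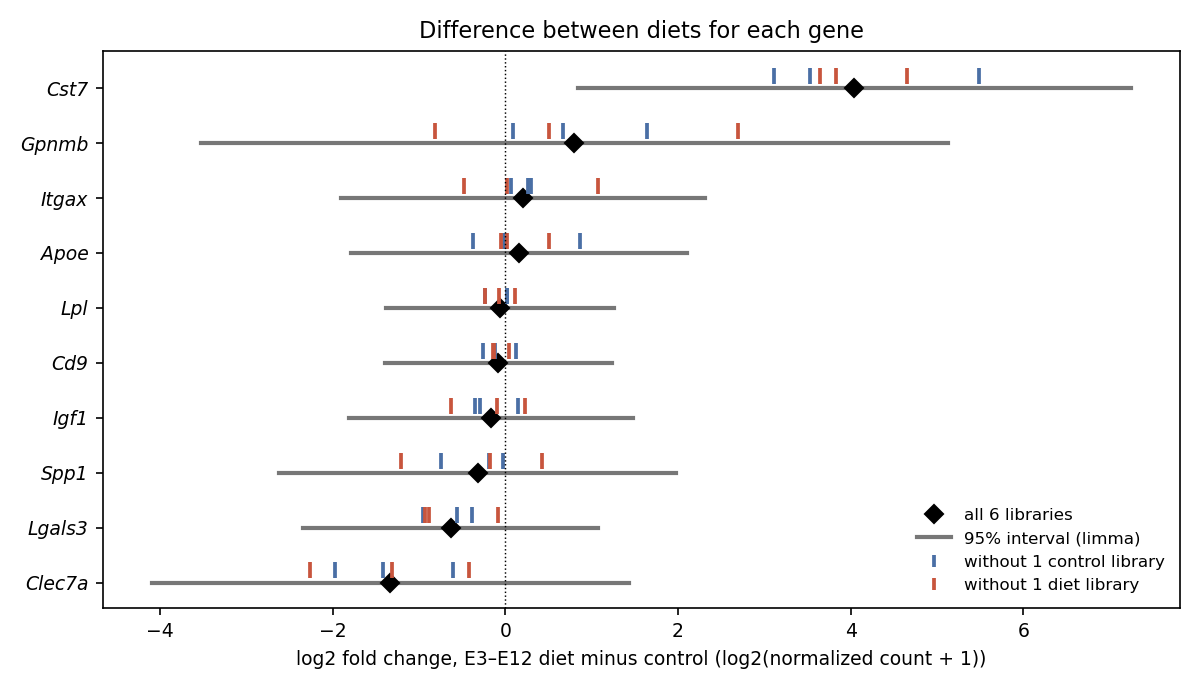
Log2 fold change between E3–E12 diet mice and controls for each of the 10 genes (black diamonds) with the 95% interval from limma (grey) and the values with 1 library left out (blue ticks without a control, red ticks without a diet library). The interval of Cst7 alone lies clear of 0 before adjustment for the number of genes, and Cst7, Clec7a and Lgals3 keep their sign without any single library.

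The rest of the program showed as little separation. Of 28 further genes of the postnatal and disease-associated states, 26 passed the filter on low values and 0 the threshold, with 11 higher and 15 lower in mean and a median log2 fold change of -0.066. Cd68, a lysosomal protein of phagocytes, had 1760, 3984 and 5700 normalized counts in controls and 1637, 5328 and 4971 in E3–E12 diet mice. The abundant genes Ctsd, a lysosomal protease (log2 fold change 0.060, SE 0.92), and B2m, a subunit of class I histocompatibility molecules (-0.38, SE 1.01), were likewise within their errors. Cd52 and Cd63 were the most positive among well expressed genes, at 1.17 (SE 1.06) and 0.66 (SE 0.63). Apart from Tyrobp, described next, the most negative of those was Lyz2, which encodes lysozyme, at -0.96 (SE 0.92), and it was at -0.21 without control replicate 2.

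Tyrobp, the adaptor through which Trem2 signals, stood out among these genes. It was listed at 0 in all E3–E12 diet libraries and had 182, 59.5 and 1494 normalized counts in controls. Among the genes tested, 8 (0.0444%) were listed at 0 in each E3–E12 diet library and above 0 in each control. By limma its unadjusted p was 0.00031 and its adjusted p 0.999, and the exact permutation p was 0.1. No fold is given, because every E3–E12 diet value is 0, and whether the RNA of Tyrobp was absent there was not tested. Its partner Trem2 had 908, 5186 and 4133 normalized counts in controls and 917, 2850 and 4467 in E3–E12 diet mice, the latter inside the range of the controls. Mef2c, a transcription factor of the homeostatic list, was at or near 0 in only part of the E3–E12 diet group. It had 0, 1727 and 0.887 normalized counts there against 664, 7016 and 1446 in controls (adjusted p = 0.999 from limma). Its groups overlapped, since E3–E12 diet replicate 2 lay above control replicates 1 and 3 (exact permutation p = 0.3).

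Homeostatic genes fall where the disease-associated program is switched on, and here 0 of 19 passed the threshold. In mean log2 level 18 of them were lower in E3–E12 diet mice, with a median log2 fold change of -0.31, but without control replicate 2 12 were higher and the median was 0.14. Csf1r, the receptor that microglia need to survive, had 48984, 280070 and 106430 normalized counts in controls and 53504, 108590 and 140890 in E3–E12 diet mice. Cx3cr1, the fractalkine receptor, and Cst3, a secreted cystatin, had log2 fold changes of -0.0053 (SE 0.85) and -0.29 (SE 1.21), and both were highest in control replicate 2. Sparc, which encodes a secreted matrix protein, was the one with a positive value, at 0.087 (SE 0.73), and Gpr34, a lipid receptor, stood at -0.60 (SE 0.99).

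Among the 42 partners of the 10 genes, 41 passed the filter, 0 passed the threshold, and 0 had an unadjusted p under 0.05, with 18 higher, 23 lower and a median log2 fold change of -0.091. For Angptl4, a secreted inhibitor of lipoprotein lipase, all E3–E12 diet libraries exceeded all controls, with 359, 158 and 185 against 62.7, 147 and 49.0 normalized counts (log2 fold change 1.5, SE 0.69, unadjusted p = 0.0685 and adjusted p = 0.999 from limma, exact permutation p = 0.1). Such separation was found for 2 higher and 1 lower of the 41 partners, against 2.99% and 2.91% of all genes tested. Gpihbp1, which anchors the lipase on capillary endothelium, did not pass the filter. Cd81, a tetraspanin that associates with Cd9, had 4186 to 22421 normalized counts in controls and 4788 to 14370 in E3–E12 diet mice. Igfbp7, abundant in vessels, had 3234, 223 and 4262 against 5096, 1336 and 3736 normalized counts (controls first) and was lowest in control replicate 2, where the summed endothelial markers were lowest but Cldn5 and Pecam1 highest. Igfbp2 spread from 4.33 to 1185 normalized counts within the diet group alone (log2 fold change -1.21, SE 2.09).

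**Figure D4:**
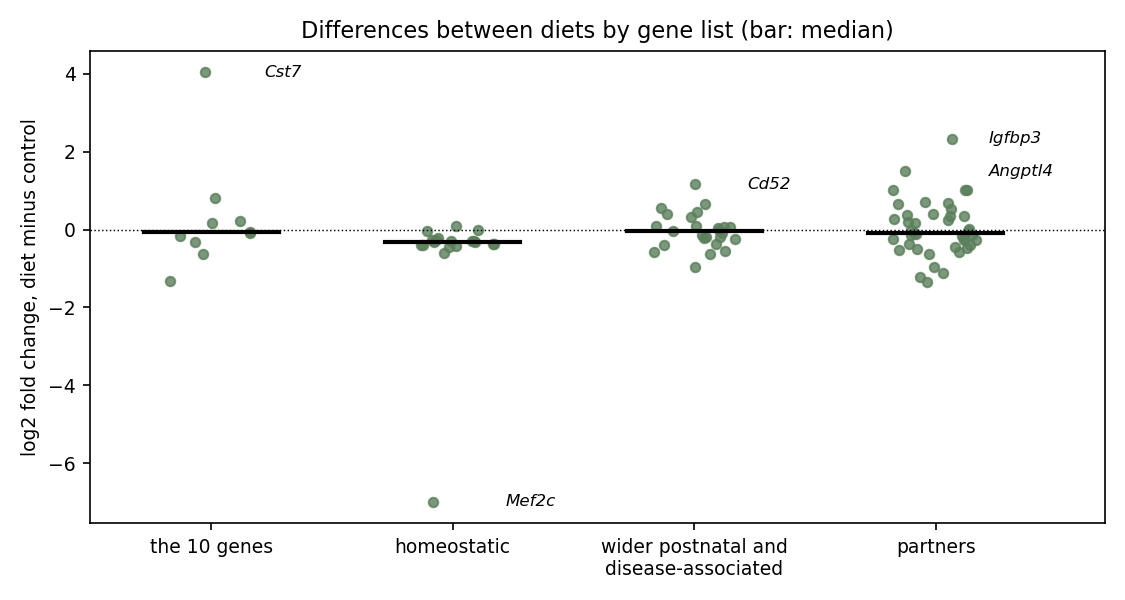
Log2 fold change (E3–E12 diet mice minus controls, on log2(normalized count + 1)) of each tested gene in 4 lists, with a bar at the median of the list, Tyrobp being left out because it was listed at 0 in a whole group. The medians drawn lie between -0.31 and -0.035, and Cst7 and Mef2c stand apart from the rest of their lists.

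Of the 64 markers found for 12 cell types, 62 were tested, 0 passed the threshold, and 1, Pf4, had an unadjusted p under 0.05. Neuronal markers summed to 623 to 1537 normalized counts in controls and 818 to 1596 in E3–E12 diet mice, with Rbfox3, Syt1 and Stmn2 at 0 in control replicate 2. Markers of oligodendrocyte precursors summed to 357 to 1608 and 405 to 2951, of mural cells to 538 to 13297 and 5300 to 12860, of monocytes and neutrophils to 343 to 1963 and 467 to 554, and of erythroid cells to 3.34 to 100.1 and 2.31 to 36.0 normalized counts (controls first).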

How the data were processed

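RNA was sequenced from microglia of 3 control and 3 E3–E12 diet litters. The authors deposited 1 table of normalized counts per gene (a signal that is not whole numbers) for 26789 genes, and 26507 Ensembl identifiers were matched to a symbol with GENCODE M21. Per the labels, FastQC, STAR, featureCounts and DESeq2 were used on GRCm38, with no versions. The file's name mentions surrogate variables, and any correction for them made before deposit could alter the spread between libraries. Between 50.1% and 71.7% of the values above 0 and under 8 in a library lay within 0.05 of a whole multiple of 1 step. For a step fixed in advance, 10.0% of evenly spread values would do so. The step was instead the one with the highest share in each library, so 10.0% is too low a reference. Approximate reads could be given, but whole reads could not be recovered for nearly all genes. Depth and reads are therefore estimates.

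Genes averaging 10 or more normalized counts were compared on log2(normalized count + 1) with limma 3.58.1 in R 4.3.3, two-sided, with Benjamini-Hochberg adjustment and a threshold of 0.1, a script tested on simulated data. All fold changes are on this scale and understate those of low genes. Exact two-sided permutation tests used the same values. Exon lengths and shared 50-base windows came from GENCODE M21. Each list is described without a set test: 19 homeostatic genes, 28 further genes of the program, 42 partners and 65 markers, of which Ly6c2 was not analysed. Alongside the 10 genes, a rule named those with an unadjusted p under 0.05 from limma and the 3 highest per kilobase. It also named the 2 most positive and 2 most negative among those averaging 100 or more. Other genes were named outside this rule, among them Abcg1, Malt1, Trem2, Itgb2, Mitf, Tfeb, Tfe3, Ctsc and Ctsl. Of these, Abcg1 and Malt1 were named after their values were seen. The 10 genes and the lists were chosen with earlier results of these data known. Replicates are separate litters. Some listed genes are not reported here by name.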

Additional observations from a re-analysis of the deposited data

How the results depend on the processing

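In all 16 alternatives 0 of the members tested, and 0 genes of the table, passed the adjusted threshold of 0.1 (limma), all 10 members being tested except with a filter at a mean of 100, which left 4. The smallest adjusted p of a member over them was 0.868, and between 109 and 551 genes of the table had an unadjusted p under 0.05, against 327. Cst7 and Clec7a kept their sign in each of their 15 alternatives, from 2.16 to 5.49 and from -2.27 to -0.41. With the replicate number as a replicate block, the member count was 0 and the log2 fold changes were as before. Whether the numbers pair the libraries cannot be settled with so few of them. Same-numbered libraries correlated at 0.26, 0.0348 and 0.142 in their deviations from group means, and the others at -0.251 to 0.0869. Control replicate 2 correlated best with E3–E12 diet replicate 3, and every other library with its own number. With the block 468 genes had an unadjusted p under 0.05, and Cst7 one of 0.0087, whereas with 1 library left out its unadjusted p ran from 0.0012 to 0.0797 and was above 0.05 in 4 of 6 fits.

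Scaling decided the sign of the genes near 0. Scaled to the homeostatic genes, the median log2 fold change was 0.58 for the members and 0.74 for all genes, Lpl was at 0.59, Igf1 at 0.48, Spp1 at 0.33, Cd9 at 0.57 and Lgals3 at 0.018. Scaled without Mef2c, a choice made after seeing the data, the medians were 0.22 and 0.38, Lpl was at 0.23, Igf1 at 0.13 and Cd9 at 0.22. Scaled to the same total, Lpl was at 0.056 and Cd9 at 0.040 with a median of 0.20 for all genes, and after quantile normalization Lpl was at 0.041 and Itgax at -0.32. With 1 library left out, log2 fold changes ranged from -0.37 to 0.87 for Apoe, -0.23 to 0.12 for Lpl, -0.63 to 0.22 for Igf1, -0.26 to 0.13 for Cd9, -0.81 to 2.70 for Gpnmb, -1.21 to 0.43 for Spp1 and -0.48 to 1.07 for Itgax, and the member median from -0.23 to 0.042. The planned edgeR and DESeq2 fits were not run, since whole reads could not be recovered.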
